A study of Canis lupus familiaris with 60 samples.

Results

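The response of nonsensitized skin to house dust mite was read from 12 of the 60 arrays of the series: 6 from skin under a patch with mite paste and 6 from skin under a patch with saline, taken 6 hr after application from the same 6 dogs. The arrays were chosen by their labels (not sensitized dogs, 6h, allergen or saline) and paired by the animal number. The dogs were Beagles aged 2 to 3 years (2 males and 4 females) that had not been sensitized to Dermatophagoides farinae, and every dog had been clipped 4 days before. The paste was 75 mg of milled mite mixed with saline, and the control patch held 50 µl of saline. Each site gave one 8 mm punch biopsy taken under lidocaine, so both sites shared clipping, bandage, anesthetic and wetting, and the contrast is that of a paste with a fluid. The Cy3-labelled RNA of each biopsy was read on an Agilent canine microarray of its own. Other biopsies served for comparison: untreated skin at 0 hr and both patch sites at 24 hr from the same dogs. Both patch sites at 6 hr from 6 Beagles that had been sensitized to the mite were also compared. The sensitized dogs were aged 2 to 3 years too, but were 4 males and 2 females, so the groups differed in the share of each sex.

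Mite extracts hold proteases, chitin and microbial products. Skin that has never been sensitized meets them with its innate defence, in which pattern receptors of keratinocytes and resident leukocytes drive NF-kB, early cytokines and chemokines, and the endothelium displays adhesion molecules for passing leukocytes. In a sensitized animal, IgE on mast cells and memory T cells add to that response.

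Between 70.2% and 77.06% of spots exceeded background clearly on each of the 12 arrays, and the median processed signal was 81.7 to 133.4, with the allergen array of dog 2847 the brightest. The number of arrays limits the precision. The arrays lay on 4 slides. The allergen arrays of dogs 2802 and 2847 were on slide 8, which had been scanned in a later session, and the saline array of dog 2847 was deposited with signals rounded to whole numbers. With the slide as a further block, 12 of the 22 transcripts described as higher below were still called. Untreated skin was hybridized on slides 7 and 8 and the 24 hr sites on slides 1, 2 and 3, so differences in level between times cannot be told apart from differences between slides. Skin was recognizable: the 5 measured markers of suprabasal keratinocytes had a summed log2 level of 18.54 to 19.26 on every array of both sites. Levels are given as normalized log2 intensities, and differences as allergen minus saline on that scale. A transcript was called when its adjusted p was below 0.05 and its difference at least 1.5-fold.

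At 6 hr in nonsensitized dogs, 22 transcripts were higher and 1 was lower under mite paste than under saline. These were 22 (0.0586%) and 1 (0.00266%), together 0.0612%, of the 37563 identifiers tested, by limma with the dog as a block. The fitted differences of the 22 ran from 0.59 to 2.93 with a median of 1.12. For 6 of them the saline sites were all below detection and the difference is only bounded, from at least 0.49 to at least 2.39, and with these at their bounds the median was 0.97. The lowest of the 22, CO600366, was at least 1.41-fold higher, so 1.5-fold was not assured for it. The other 16 ran from 0.63 to 1.58 with a median of 0.94. Each of the 22 was higher at the allergen site in 6 of 6 dogs. None of the 23 carried a gene symbol in the tables that could be used here, so they are given by the identifiers of the array design. Whether their signals came from dog RNA or from material of the paste on the skin was not tested. The calls rested on the spread measured over 59 arrays. With the 12 arrays alone no identifier was called, although 5256 had an unadjusted p below 0.05, and the 3 largest differences had an adjusted p of 0.112.

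**Figure D1:**
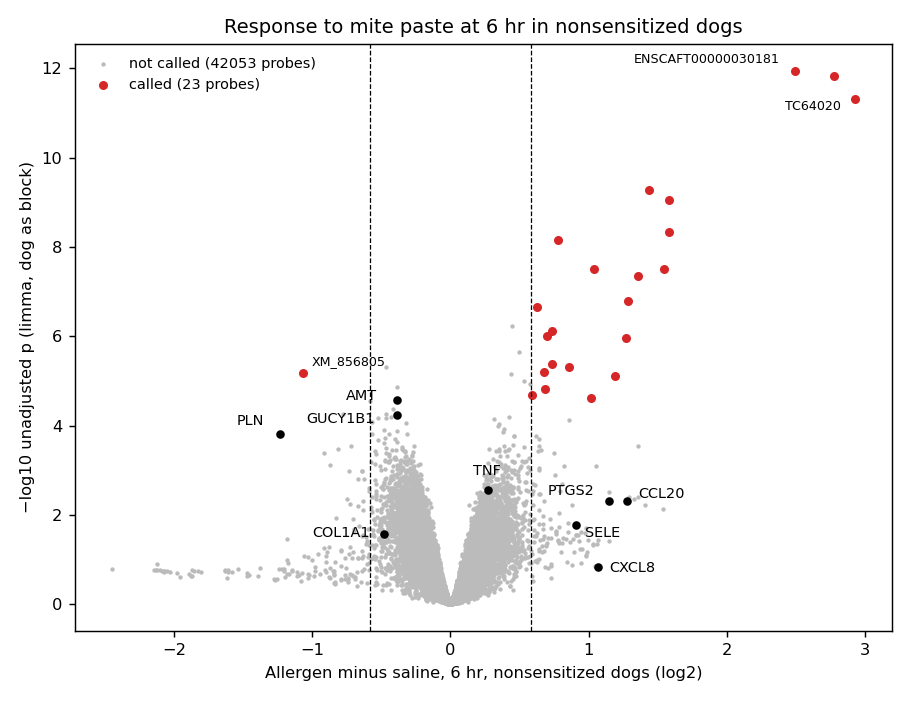
Allergen minus saline difference at 6 hr in the 6 nonsensitized dogs (horizontal axis, log2) against the negative log10 of the unadjusted p of limma (vertical axis), 1 point per probe. Red points are the 23 called probes, dashed lines mark 1.5-fold, and black points are genes named in the text, none of which was called; 22 of the red points lie on the side of higher values at the allergen site.

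TC64020 was below detection at the saline sites. Its level at the allergen sites was 6.37 at the lowest, 7.24 at the median and 8.60 at the highest, and at the saline sites it was 4.17, 4.44 and 4.77. The sites did not overlap, and the probe was well above background at all 6 allergen sites and at no saline site. Its fitted difference was 2.93 (SE 0.31, adjusted p = 6.96e-08), and as a bound over the detection floor it was at least 5.25-fold higher under mite paste. The bound sets the mean of the allergen sites against the lowest signal that counted as above background on each saline array. Untreated skin, at 4.52 ± 0.08 (SD, n = 6), lay within the range of the saline sites.

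ENSCAFT00000042272 followed the same course. It lay between 6.43 and 8.35 at the allergen sites, with a median of 7.26, and between 4.32 and 4.66 at the saline sites, with a median of 4.52. This identifier too was above background at no saline site and was at least 4.99-fold higher under paste (difference 2.78, SE 0.28, adjusted p = 3.13e-08). ENSCAFT00000030181 was singled out after its values were seen. It differed by 2.49 (SE 0.25, adjusted p = 3.13e-08) and was at least 4.37-fold higher. Over the 12 arrays the levels of these 3 correlated with each other at r = 0.995 to 0.996, as a description of points that share the dogs and the division into sites.

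The next called transcripts were present without allergen. XM_548192, also singled out after its values were seen, ranged from 5.71 to 6.17 at the saline sites, all well above background, and from 6.77 to 8.70 at the allergen sites (difference 1.58, SE 0.20, adjusted p = 7.49e-06). The sites of XM_548192 did not overlap. Of the 22, 14 were well above background at all 6 saline sites and 6 at none. Over the 22, the saline minus untreated difference, whose arrays shared no slide, had a median of -0.18 and a range of -0.49 to 0.17. The allergen sites stood above untreated skin for 22 of 22.

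The dogs differed in size of response, and in much the same order. Dog 2802 had the largest difference in 21 of the 22 transcripts, and dogs 2800 and 2802 were the highest pair in 18. Whether some of the 22 identifiers read the same transcript was not tested. Over the 22, the median difference was 1.98 in dog 2802, 1.48 in dog 2800, 1.09 in dog 2704, 0.74 in dog 2845, 0.66 in dog 2716 and 0.59 in dog 2847. Without dog 2802 the number called higher fell from 22 to 12, all 12 of them among the 22, and the direction of all 22 stayed. Without dogs 2802 and 2847, whose allergen arrays were on slide 8, 12 were called higher, of which 11 were among the 22. ENSCAFT00000019852 was singled out as the exception in the order of dogs. Its difference was highest in dog 2704 at 1.04, and lay between 0.47 and 0.92 in the others (mean 0.74, SE 0.13, adjusted p = 0.00234). A further probe of the same identifier showed -0.23 (adjusted p = 0.475). Of the 23 called identifiers, 3 had a further probe that passed the filter, and none of the 3 further probes showed the change: ENSCAFT00000003181, called at 1.35, had one at 0.01 (adjusted p = 0.972), and the last was that of the transcript called lower.

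**Figure D2:**
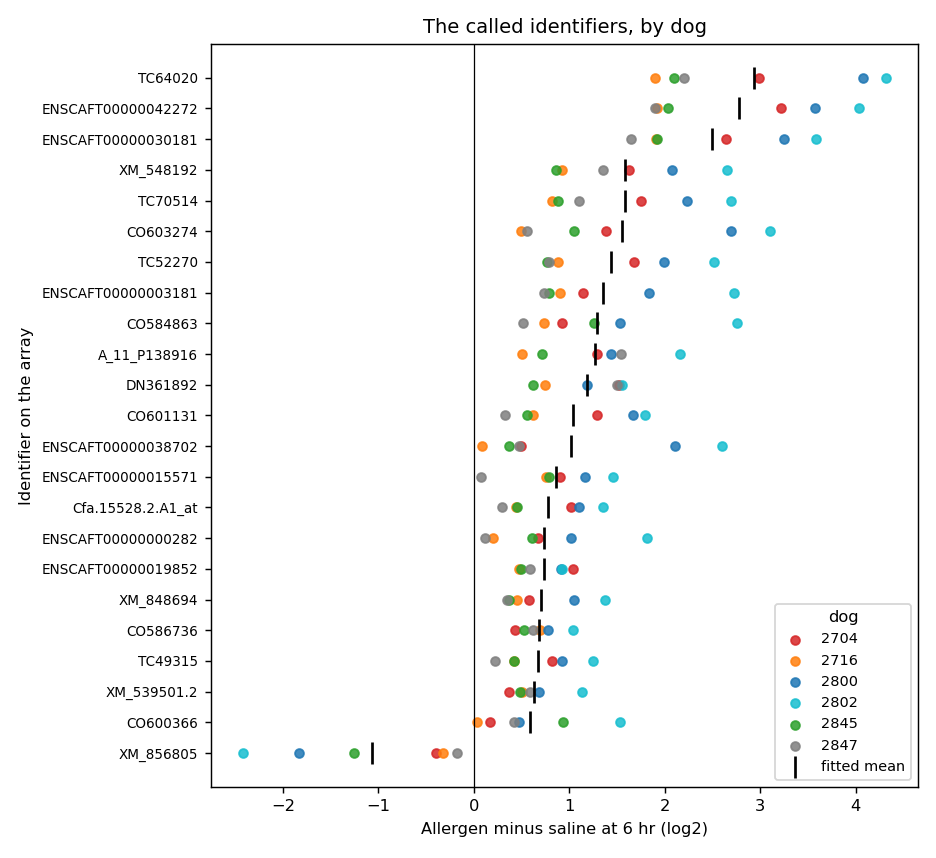
Allergen minus saline difference at 6 hr (log2) for the 23 called identifiers, 1 coloured point per dog and a black bar at the fitted mean. All points of the upper 22 identifiers lie above 0, and dogs 2800 and 2802 lie farthest from 0 in most of them.

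The transcript that was lower was XM_856805. It was abundant at the saline sites, where it lay between 12.89 and 13.61 with a median of 13.30, and at the allergen sites it lay between 10.47 and 13.28 with a median of 12.58. It was lower under paste in 6 of 6 dogs by a mean of -1.07 (SE 0.21, adjusted p = 0.0125), most in dogs 2802 (-2.42), 2800 (-1.83) and 2845 (-1.26). Another probe of the same identifier showed a difference of 0.16 (adjusted p = 0.391), so the call rests on 1 of the 2 probes. The call was lost without the dog as a block (adjusted p = 0.231), without dog 2800, 2802 or 2845, and with the slide as a further block (adjusted p = 0.136). Within slide 4 the difference was -0.65.

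The same contrast was read for the 22 transcripts in the sensitized dogs. Their differences did not enter the contrast that chose the 22, but their arrays entered the shared estimate of spread on which both sets of calls rested. All 22 were higher at the allergen sites of sensitized dogs on average, by 0.13 to 2.72 with a median of 0.83, and 15 were higher in all 6 sensitized dogs. By the same thresholds 15 of the 22 were called in sensitized dogs, against 321 (0.855%) of all identifiers in that direction. For TC64020 the difference was 2.72 ± 1.06 (SD, n = 6) in sensitized dogs, and for ENSCAFT00000042272 it was 2.48 ± 1.12. Detection of these identifiers at the saline sites of sensitized dogs was not examined, so the size of both differences is uncertain. The contrast between the groups of dogs was called for none of the 22.

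The 22 transcripts were read again at 24 hr. The differences had been chosen for being large at 6 hr, so a smaller value at 24 hr may follow in part from that choice. At 24 hr the mean difference was positive for 21 of 22, with a median of 0.41, and 5 were called higher against 133 (0.354%) of all identifiers. The test of the 24 hr against the 6 hr difference called 10 of the 22 lower, against 1.63% of all identifiers. The calls of this test fell from 1108 to 10 over all identifiers without dogs 2802 and 2847. Of the 10 among the 22, 6 were below detection at every saline site at 6 hr, so that the size of their change rests on saline values without a measured level. TC64020 was one of them, and its level at the allergen sites was 7.37 ± 0.96 at 6 hr and 5.99 ± 0.83 at 24 hr (SD, n = 6).

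None of the 1225 genes with a symbol was called at 6 hr. By limma, 200 had an unadjusted p below 0.05, with 90 higher and 110 lower, and the background over all identifiers was 5.04% higher and 6.84% lower. In size, 25 genes were at least 1.5-fold higher and 7 at least 1.5-fold lower, and the smallest adjusted p among these 32 was 0.124. The names came in part from a gene table that the study had drawn up from these arrays at 24 hr, so genes of the 24 hr response are overrepresented among the symbols.

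The gene with the smallest p was AMT, an enzyme of the glycine cleavage system. AMT lay between 9.43 and 10.29 at the allergen sites and between 10.09 and 10.76 at the saline sites, with overlap. It was lower in 6 of 6 dogs by -0.39 (SE 0.08, adjusted p = 0.0356), which passed the limit on p and not that on fold. The pass did not hold without the dog as a block (adjusted p = 0.721), with the slide as a further block (0.32), with all 60 arrays (0.306), without any of the dogs other than 2800 (0.106 to 0.247), or as the mean over the probes of AMT, at -0.20 (0.368). GUCY1B1, a subunit of the nitric oxide receptor guanylate cyclase, also differed by -0.39 in 6 of 6 dogs (SE 0.09, adjusted p = 0.069). Its saline sites stood at 7.48 ± 0.27 and its allergen sites at 7.09 ± 0.20, close to the 7.05 ± 0.22 of untreated skin.

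PLN, the phospholamban of muscle calcium pumps, had a difference of -1.23 (SE 0.30, adjusted p = 0.124) at its brighter probe and -0.50 at a dimmer one. It was lower in 5 of 6 dogs, by -2.76 in dog 2802 and -1.63 in dog 2704, and 0.04 in dog 2800. DES, the muscle intermediate filament desmin, moved beside it with -1.53 in dog 2704, -0.35 in dog 2802 and 0.21 in dog 2800 (mean -0.67), and the part of muscle content in these values was not tested. Among all identifiers, 122 were at least 1.5-fold lower on average, yet only 32 of them had an unadjusted p below 0.05. Their lowest dog was 2845 for 79 and 2704 for 29, and in dog 2800 their median difference was 0.14.

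The other genes lower at the smallest p were OPTC (-0.51), a small proteoglycan, CCDC78 (-0.42), a coiled-coil protein of centriole formation, and TACC2 (-0.34), a protein of the centrosome. Those that were higher were RBM47 (0.40), an RNA-binding protein, HTR2B (0.41), a serotonin receptor, XBP1 (0.37), a transcription factor of the unfolded protein response, ZFAT (0.41, but 0.17 with normexp and 0.89 with scaling to the 75th percentile), a zinc finger protein above background at 1 of 6 saline sites, SNORA1 (0.41), a small nucleolar RNA, and TNF (0.27). Several of these values moved with 1 dog or setting: HTR2B was 0.25 without dog 2802 and 0.24 with normexp, TACC2 -0.21 without dog 2704, OPTC -0.28 as the mean over its probes and TNF 0.16 with the slide as a further block. None of these 9 was called, and their adjusted p ran from 0.226 for OPTC to 0.285 for TNF. HTR2B, XBP1 and SNORA1 were higher in 6 of 6 dogs. The exact sign-flip test gave p = 0.0312 each, the smallest that 6 dogs allow. It adds no support, since these genes were picked by a small p on the same dogs.

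No member of the gene lists for inflammation was called. Monocyte and granulocyte chemokines were higher on average in 9 of 9 measured genes of 19 listed, with a median difference of 0.62, against 0.01 over all probes tested. In dog 2704 the median of these 9 was 2.55, and in the other dogs it was 0.01 to 0.44. None of the 9 was called, and 3 had an unadjusted p below 0.05.

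CCL20, a chemokine of keratinocytes that draws dendritic cells and T cells bearing CCR6, was higher in 6 of 6 dogs. It lay between 11.38 and 14.98 at the allergen sites and between 10.45 and 13.72 at the saline sites, with medians of 12.05 and 11.20. The difference of CCL20 was 1.28 (SE 0.43, adjusted p = 0.301), with 3.21 in dog 2704, 1.26 in dog 2716 and 0.30 to 1.03 in the other 4. CCL2, which recruits monocytes, differed by 0.87 (SE 0.41, adjusted p = 0.437) and CCL8, another monocyte attractant, by 0.92 (SE 0.40, adjusted p = 0.399). Both were higher in 6 of 6 dogs, by 2.74 and 2.81 in dog 2704, and by 0.06 and 0.04 in dog 2800. Without dog 2704 CCL2 was 0.49, CCL8 0.54 and the median over the 9 chemokines 0.25. Dimmer probes differed by 0.88 for CCL2 and by only 0.08 for CCL8.

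CXCL8, the neutrophil chemokine interleukin 8, showed how uneven the dogs were. At the allergen sites it was 10.81 in dog 2704 and 11.41 in dog 2716, and 5.75 to 6.27 in the other 4 dogs. At the saline sites it was 9.41 in dog 2716 and 4.98 to 6.73 in the others. The mean difference of 1.07 (SE 0.72, adjusted p = 0.595) did not pass the test, and was 0.34 without dog 2704. At a dimmer probe of CXCL8 it was 0.59. CXCR2, its receptor on neutrophils, differed by 0.21.

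**Figure D3:**
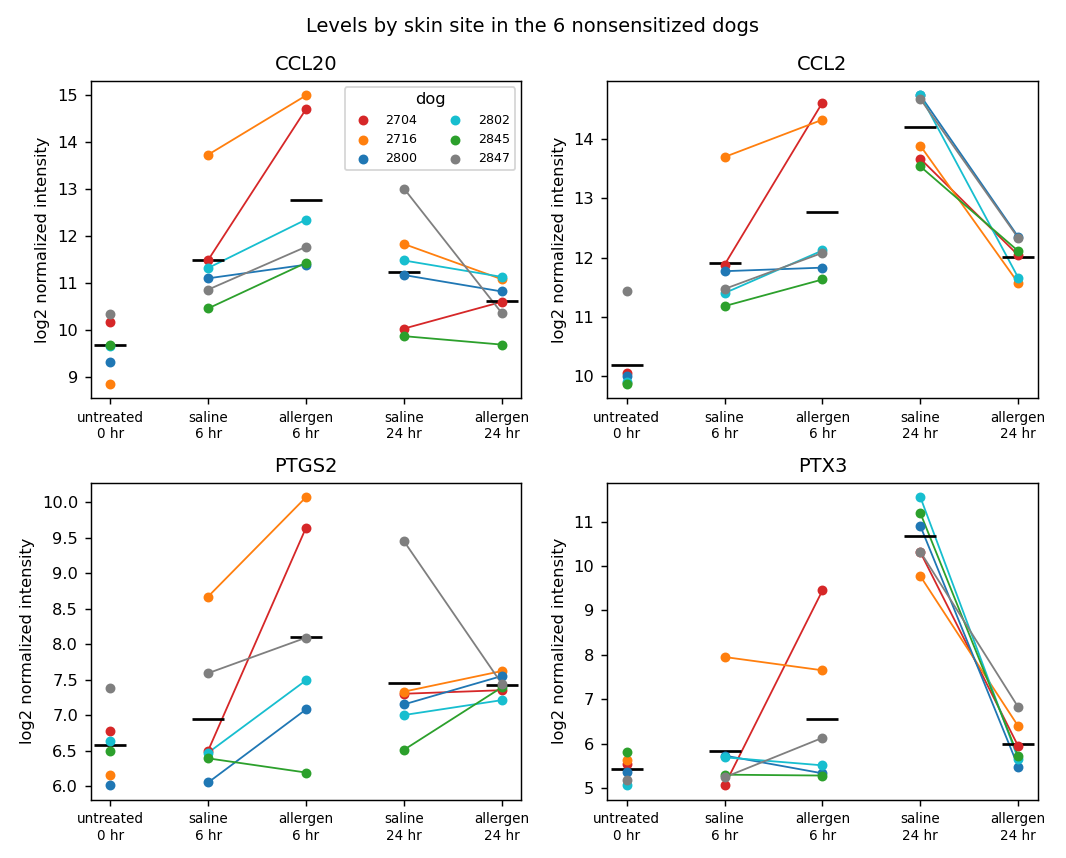
Normalized log2 intensity of CCL20, CCL2, PTGS2 and PTX3 at the 5 skin sites of the 6 nonsensitized dogs, 1 coloured point per dog, with a line joining the saline and allergen sites of a dog and a black bar at the mean. At 6 hr dog 2704 rises steeply from saline to allergen in all 4 genes, and at 24 hr the saline sites of CCL2 and PTX3 lie above the allergen sites in every dog.

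PTGS2, the inducible cyclooxygenase of prostaglandin synthesis, differed by 1.15 (SE 0.39, adjusted p = 0.301). Its level was 6.19 to 10.07 at the allergen sites and 6.05 to 8.67 at the saline sites, and it was higher under paste in 5 of 6 dogs. The difference was 3.15 in dog 2704 and -0.20 to 1.40 in the others, with a mean of 0.75 without dog 2704. Of the 7 measured genes for prostaglandins and leukotrienes (20 listed), none was called and the median was 0.19, or 0.08 without dog 2704. PTGER4, a receptor for prostaglandin E, differed by 0.19 (0.12 without dog 2704), and PTGDS, the prostaglandin D synthase, by -0.39.

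None of the measured receptors that sense microbes was called. Of the 11 measured pattern receptors and adaptors (32 listed), 9 had a positive difference, and 2 had an unadjusted p below 0.05. The median was 0.18, with 1.11 in dog 2704 and -0.01 without that dog. CD14, the lipopolysaccharide co-receptor, differed by 0.60 (adjusted p = 0.378), by 2.50 in dog 2704 and by -0.28 to 0.74 in the others. TLR9, the receptor for unmethylated DNA, differed by 0.23, by 0.12 without dog 2802, by 0.05 without dogs 2802 and 2847 and by 0.12 with the slide as a further block. TLR2 and TLR4, the receptors for bacterial lipoproteins and lipopolysaccharide, differed by 0.18 each, and both means fell to about 0 without dog 2704 (-0.02 and -0.01).

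The list of NF-kB and related transcription factors and feedback inhibitors had a median difference of 0.39 over 6 measured of 22 listed, and all 6 were positive. BIRC3, an inhibitor of apoptosis under NF-kB control, differed by 0.85 (SE 0.36, adjusted p = 0.389), CEBPD, a transcription factor of the acute phase, by 0.49, SOCS3, the brake on cytokine signalling, by 0.52, and BCL3, a nuclear IkB protein, by 0.28. In dog 2704 the median of the 6 was 1.31, and without that dog it was 0.19, with 0.49 for BIRC3, 0.24 for CEBPD, 0.30 for SOCS3 and 0.15 for BCL3. The immediate early genes NR4A1 (0.37), an orphan nuclear receptor, and MYC (0.26) were among 4 measured of 32 listed, with a median of 0.20. Without dog 2704 NR4A1 was 0.18, MYC 0.07 and the median 0.12. Dimmer probes differed by 0.78 for BIRC3 and by only 0.10 for SOCS3.

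Innate cytokines and their receptors had a median difference of 0.22 over 18 measured of 44 listed. 14 of the 18 were positive, none was called and 4 had an unadjusted p below 0.05. TNF was 6.41 to 6.84 at the allergen sites and 6.16 to 6.51 at the saline sites, higher in 5 of 6 dogs. IL18BP, the soluble inhibitor of interleukin 18, differed by 0.81 (SE 0.37), TNFRSF1A, a receptor of TNF, by 0.29, and OSMR, the oncostatin M receptor, by 0.34. PTX3, a soluble pattern receptor, was given for its course in time: at 6 hr it was 4.39 higher in dog 2704, 0.89 higher in dog 2847 and between -0.40 and -0.03 in the other 4. The median of the 18 was 1.03 in dog 2704 and 0.02 without that dog, where IL18BP was 0.30 and TNFRSF1A 0.14. Dimmer probes differed by 0.77 for IL18BP and by 0.10 for TNFRSF1A.

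Of 11 measured chemokines for lymphocytes (20 listed), 9 had a positive difference. The median was 0.19, and 0.12 without dog 2704. CCL25, an attractant of thymic and gut T cells, was higher in 6 of 6 dogs by 0.44 (SE 0.14, adjusted p = 0.286), and stood at 6.11 ± 0.37 at the allergen sites, below the 6.57 of untreated skin. CXCL16, the ligand of CXCR6, differed by 0.40 (0.21 without dog 2704) and CXCR6 by 0.15 (0.08 without dog 2847). The 5 measured chemokine receptors (18 listed) had a median of 0.16, or 0.09 without dog 2704.

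Of the 7 measured type 2 genes of 21 listed, 6 had a positive difference and 1, GATA3, a negative one. The median was 0.13, with 0.97 in dog 2704 and -0.01 without that dog. IL13, the cytokine of allergic inflammation, was 5.13 to 6.98 at the allergen sites and 4.32 to 5.74 at the saline sites, and differed by 0.88 (SE 0.30, adjusted p = 0.309), higher in 5 of 6 dogs. It was well above background at 3 of the 6 saline sites. GATA3, a transcription factor of type 2 lymphocytes and of keratinocytes, was lower in 6 of 6 dogs by -0.44 (SE 0.15, adjusted p = 0.311). IL33, an alarmin of epithelial and endothelial cells, differed by 0.20 and by -0.02 without dog 2704.

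Genes of activated vessels were not called. SELE, the E-selectin of activated endothelium, differed by 0.91 (SE 0.36, adjusted p = 0.363), by 3.04 in dog 2704 and -0.44 in dog 2800. ICAM1, the ligand of leukocyte integrins, differed by 0.54. Without dog 2704 SELE was 0.48 and ICAM1 0.26. Dimmer probes differed by 0.52 for SELE and by 0.16 for ICAM1. The 8 measured genes of endothelial activation (15 listed) had a median of 0.02, in dog 2704 0.08.

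Antimicrobial proteins and alarmins had a median of 0.23 over 8 measured of 20 listed, with 0.88 in dog 2704 and 0.10 without that dog, and 3 had an unadjusted p below 0.05 and a positive difference. CAMP, the cathelicidin, differed by 0.28 (0.18 without dog 2716), SLPI, a secreted protease inhibitor, by 0.36 (0.15 without dog 2704), and CHI3L1, a chitinase-like protein without enzymatic activity, by 0.93 (SE 0.44, adjusted p = 0.433). CHI3L1 was 4.00 higher in dog 2704 and 1.09 higher in dog 2716, and lay between -0.28 and 0.39 in the others. S100A8, a calcium-binding protein abundant in neutrophils and stressed keratinocytes, was 3.54 higher in dog 2704 and 1.74 higher in dog 2847, but -1.08 in dog 2800.

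Matrix proteases and their inhibitors had a median of 0.41 over 9 measured of 26 listed. ADAMTS4 and ADAMTS5, which cleave aggrecan, differed by 0.94 and 0.43. The median of the 9 was 1.55 in dog 2704 and 0.09 without that dog, where ADAMTS4 was 0.23. C5AR1, the receptor of the complement fragment C5a, was 3.00 higher in dog 2704 and averaged -0.08 without that dog, and the 3 measured complement genes of 22 listed ran from -0.17 to 0.44.

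**Figure D4:**
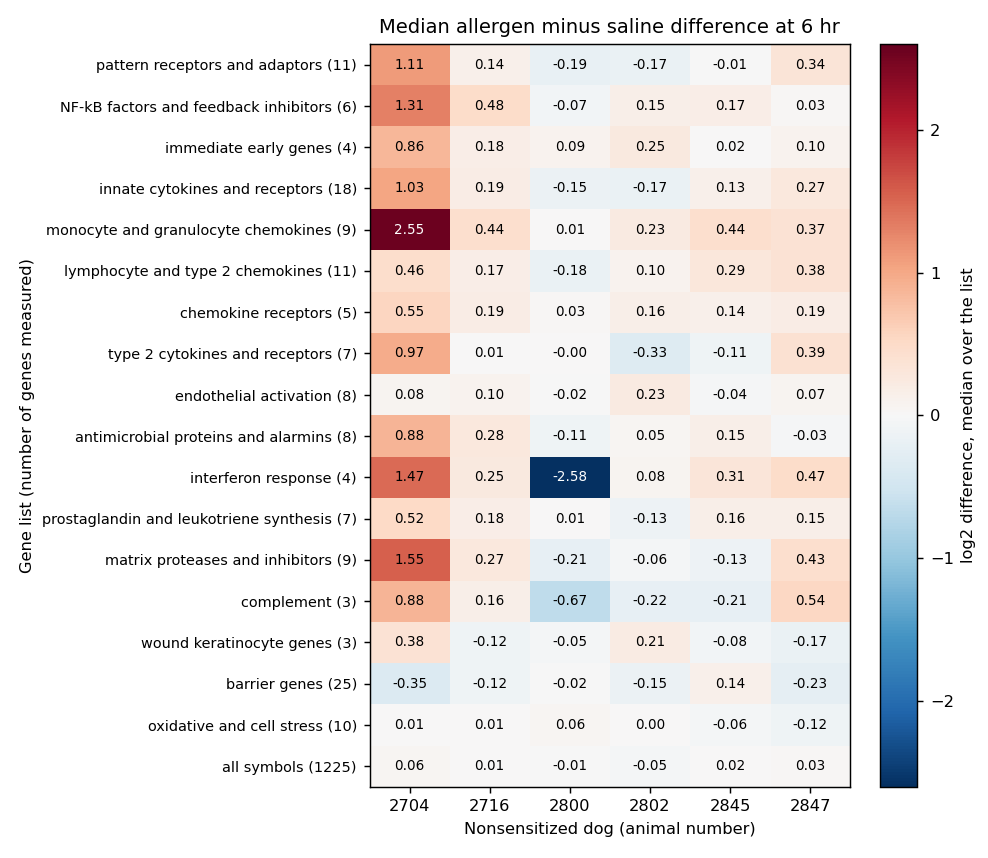
Median allergen minus saline difference at 6 hr (log2) for each gene list and each nonsensitized dog, with the number of genes measured in brackets and the 1225 genes with a symbol in the last line. The column of dog 2704 is the one with positive medians above 0.80 in most inflammatory lists, and the one strongly negative cell, -2.58, is that of interferon genes in dog 2800.

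The interferon genes of dog 2800 stood apart. The 4 measured genes of 29 listed (MX1, OAS1, OAS2 and CXCL10) had mean differences with a median of 0.00. By dog, the median of the 4 was 0.08 to 1.47 in the other 5 dogs and -2.58 in dog 2800. In dog 2800 all 4 were lower at the allergen site, by -3.62 at most and by -2.26 for CXCL10. OAS2, which makes 2-5A in the antiviral response, stood at 11.66 at the saline site of dog 2800 and at 9.39 to 10.29 at the saline sites of the others. The saline site was the one that stood apart. The median of the 4 genes was 2.69 above untreated skin there, and 0.11 above it at the allergen site of the same dog. In the other 5 dogs the differences of the 4 genes lay between -0.33 and 3.07.

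No measured barrier gene was called. The median over 25 measured of 52 listed was -0.13, 17 of the 25 were negative, and 2 had an unadjusted p below 0.05, both lower. Without dog 2704 the median was -0.05, and in dog 2845 it was 0.14, with 20 of the 25 positive. PPARA, a nuclear receptor that drives epidermal lipid genes, was lower in 6 of 6 dogs by -0.38 (SE 0.13, adjusted p = 0.301), and by -0.23 without dog 2704. CGN, the tight junction protein cingulin, differed by -0.24, or -0.15 without dog 2847. Stress genes had a median of 0.03 over 10 measured of 32 listed. HSPA5, the chaperone of the endoplasmic reticulum, was higher in 6 of 6 dogs by 0.36 (SE 0.12, and 0.18 without dog 2704), while HSPB1, a small heat shock protein of keratinocytes, differed by -0.24 and GPX3, the secreted glutathione peroxidase, was lower in 6 of 6 dogs by -0.27. The 3 measured wound keratinocyte genes of 21 listed ran from 0.04 to 0.08.

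Markers of resident and infiltrating cells were measured for few genes of each type, and none was called. In whole skin, fewer cells of a type and less RNA per cell cannot be told apart. The 4 fibroblast markers measured of 11 had a median of -0.23, with COL1A1 at -0.48 and COL1A2 at -0.31 (-0.27 and -0.17 without dog 2716) and a summed log2 level of 17.58 to 19.31 at the allergen sites and 17.91 to 19.39 at the saline sites. The 5 macrophage markers of 14 had a summed level of 10.79 to 12.56 and 10.77 to 11.74, and their summed difference was 1.77 in dog 2704 and -0.58 to 0.78 in the others. The 3 neutrophil markers of 14 had a summed difference of 3.53 in dog 2704 and -1.05 to 1.73 in the others. The part of cell numbers in the inflammatory lists was not tested. The 6 markers of T and NK cells of 25 had a median of 0.12, with PRF1, the perforin of cytotoxic cells, at 0.25 (0.15 without dog 2802), and the 5 of mast cells of 11 had 0.10. The 8 of dendritic cells of 16 had 0.07, the 6 of melanocytes of 9 had -0.14, and the 5 of suprabasal keratinocytes of 11 had 0.00. For hair follicle (3 of 12), adipocyte (3 of 9), endothelium (2 of 13) and skeletal muscle (2 of 12) the medians were -0.03, 0.00, -0.01 and -0.25. The markers of basal keratinocytes (1 of 10, -0.08), smooth muscle (1 of 8, DES) and B cells (1 of 13, 0.19) were single genes. No marker of sebaceous gland, red blood cells or eosinophils passed the filter.

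The transcripts that sensitized dogs raised at 6 hr showed how far nonsensitized dogs shared that response. This set was chosen on the difference in other dogs. Both contrasts came from one fit with a shared spread for each probe, which favours probes of small spread among the calls and may raise the counts below p limits given here. Of the 321 identifiers called higher in sensitized dogs, 320 also had a positive mean difference in nonsensitized dogs, or 99.7% against 51.9% of all probes. The median was 0.86 in sensitized dogs, where selection raised it, and 0.38 in nonsensitized dogs. Of the 321, 137 (42.7%) had an unadjusted p below 0.05 in the same direction, against 5.04% of all identifiers, and 15 were called. Of the 38 (0.101%) called lower in sensitized dogs, 38 had a negative mean difference in nonsensitized dogs, with medians of -0.65 and -0.40, and 30 (78.9%) had an unadjusted p below 0.05, against 6.84% of all identifiers.

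Again dog 2704 stood apart. All 321 were higher in dog 2704, with a median of 1.43, against 296 in dog 2716 (0.41), 259 in dog 2847 (0.30), 222 in dog 2802 (0.15), 200 in dog 2845 (0.10) and 135 in dog 2800 (-0.05). Without dog 2704, the median of the 321 fell to 0.15 and 272 of them remained positive, against 49.3% of all probes, and of the 38 lower ones 38 remained negative with a median of -0.27. The allergen and saline arrays of dog 2704 were on slides 4 and 5, as were those of dog 2716. The dogs with the strongest change in the 22 called transcripts, 2800 and 2802, were not those with the strongest change in the 321.

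Untreated skin of the same dogs placed the saline patch. Over the 321 identifiers, the saline site at 6 hr stood a median of 0.26 above untreated skin in dog 2704 and 1.00 above it in dog 2716, and 0.10 to 0.37 above it in the others. The allergen site stood 1.70 above untreated skin in dog 2704, 1.31 in dog 2716, and 0.29 to 0.45 in the other 4. Both sites of dog 2716 stood above untreated skin, and CCL20 at its saline site was 13.72, beside 10.45 to 11.48 in the others.

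**Figure D5:**
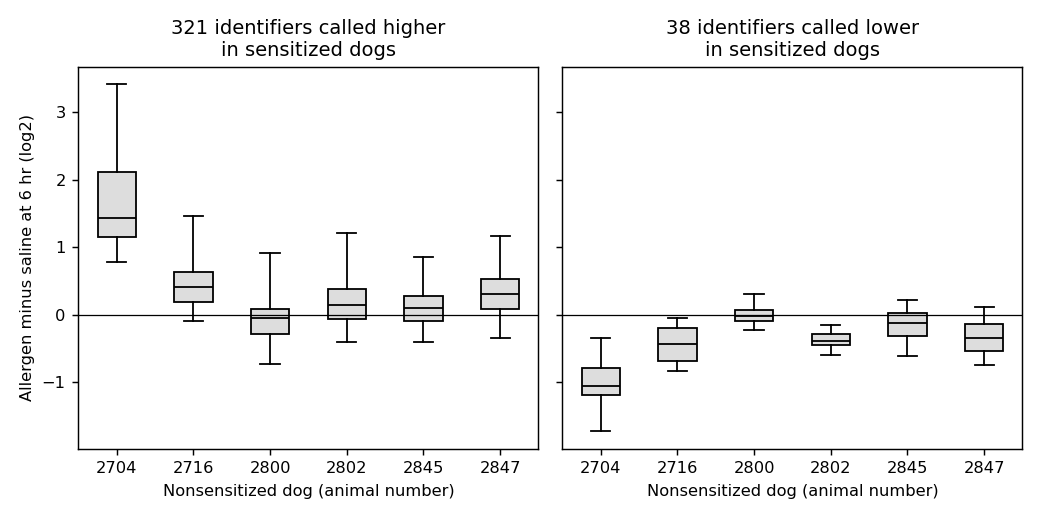
Allergen minus saline difference at 6 hr (log2) in each nonsensitized dog for the 321 identifiers called higher and the 38 called lower in sensitized dogs. Boxes span the quartiles around the median and whiskers the 5th to 95th percentile over identifiers; the box of dog 2704 lies farthest from 0 in both panels.

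The test of the difference between nonsensitized and sensitized dogs at 6 hr called no identifier of 37563. By limma, 853 (2.27%) had an unadjusted p below 0.05, of which 310 were higher and 543 lower in nonsensitized dogs. Among the genes named here the largest gaps were those of TNFAIP6, which binds hyaluronan at inflamed sites (-2.11, SE 0.75), and ADAMTS4 (-2.04, SE 0.84), followed by those of the chemokines CCL2, CCL8 and CXCL8. CCL2 rose by 2.85 ± 0.73 in sensitized dogs (adjusted p = 6.47e-05) against 0.87 in nonsensitized dogs, a gap of -1.98 (SE 0.58), and CCL8 rose by 2.88 ± 0.68 (adjusted p = 4.56e-05), a gap of -1.96 (SE 0.57). The gap of CXCL8 was -1.96 (SE 1.02), that of PTX3 -1.71 and that of C5AR1 -1.55. CCL20, PTGS2 and SELE were also called in sensitized dogs, at 2.75, 2.53 and 2.46, with gaps of -1.47, -1.38 and -1.55. Each of these 10 gaps had an adjusted p of 1, so that none was shown to differ between the groups of dogs.

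The differences at 24 hr were compared with those at 6 hr in the same dogs. The 24 hr biopsies came from patch areas already biopsied at 6 hr, and the part of that in the changes was not tested. The test of the 24 hr against the 6 hr difference called 1108 identifiers (2.95%), 613 lower (1.63%) and 495 higher (1.32%). Among the lists, 8 of the 18 innate cytokine genes, 5 of the 6 NF-kB genes, 5 of the 9 matrix proteases, 4 of the 7 type 2 genes, and 3 each of the 9 monocyte and granulocyte chemokines and the 11 pattern receptors were called lower, against 1.63% of all identifiers. This share cannot be read as a property of the lists, since part of their members could be named only through the study's table of genes that differed at 24 hr on these arrays. The medians of these lists went from 0.22 to -0.42, from 0.39 to -0.78, from 0.41 to -1.23, from 0.13 to -0.51, from 0.62 to -0.82 and from 0.18 to -0.52. Of the 25 barrier genes measured, 2 were called higher, and the median of that list went from -0.13 to 0.25.

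Of the 34 named results called in this test, 21 changed more at the saline sites from 6 hr to 24 hr and 13 more at the allergen sites, where the times were on different slides. CCL2 stood at 11.90 ± 0.92 at the saline sites and 12.77 ± 1.34 at the allergen sites at 6 hr, and at 14.21 ± 0.57 and 12.01 ± 0.33 at 24 hr, so that its difference went from 0.87 to -2.20 (change -3.07, adjusted p = 0.00196). PTX3 went from 5.83 ± 1.07 to 10.67 ± 0.66 at the saline sites and from 6.56 ± 1.67 to 6.00 ± 0.51 at the allergen sites (change of the difference -5.40, adjusted p = 3.7e-05). From 6 hr to 24 hr the mean of SELE changed by -1.23 at the allergen sites and 0.61 at the saline sites, and that of SNORA1 by -0.68 and 0.36. CCL8, TNFAIP6, ADAMTS4, IL33 and HDC, the enzyme that makes histamine, changed by -3.11, -3.51, -3.91, -1.97 and -1.44, with an adjusted p of 0.000847 to 0.00472. Over the 321 identifiers, the saline sites stood 0.41 above untreated skin at 6 hr and 1.13 above it at 24 hr, and the allergen sites 0.78 and 0.49. CCL20 and PTGS2 were not called in this test (adjusted p = 0.0503 and 0.197), and neither were CXCL8 and S100A8 (0.372 and 0.274).

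These calls between times depended on the dogs. Of the 34 named results called, 18 were still called without dog 2704, 20 without dog 2802 and 2 without dogs 2802 and 2847. All identifiers called numbered 511, 376 and 10 in those fits, which also held fewer dogs. By limma, 8271 identifiers had an unadjusted p below 0.05 with all dogs, and 5233 without dogs 2802 and 2847.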

How the data were processed

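Of the 60 arrays, the 12 of both 6 hr patch sites of nonsensitized dogs were compared, grouped by the labels. The intensity values deposited by the authors are processed signals of Agilent Feature Extraction 10.7.3.1, background-subtracted per the file headers and not scaled between arrays. The series table deposited by the authors holds the same intensity values. The study's methods filtered on detection, normalized by vsn and tested with limma without the dog.

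Here, outlier spots were set to missing, and the 43259 spots well above background on at least 5 of 6 arrays of either site were kept (42076 probes). The deposited signals were normalized to a log2-like scale by variance stabilization over 59 arrays, with the 1 array that the study excluded left out. The package vsn was written anew, and the code was tested on simulated data. Replicate spots were averaged per probe. limma 3.58.1 (R 4.3.3) fitted 10 group means with the dog as a block (39 residual degrees of freedom), and p-values were adjusted by Benjamini and Hochberg over all probes. The same fit gave the contrasts between groups of dogs and between times. Sites of a dog deviated together from their group means (r = 0.316 to 0.757 over 6 pairs); same-numbered samples are sites of one animal per the labels, and shared slides were not separated from it. A call needed an adjusted p below 0.05 and 1.5-fold. Identifiers were counted once.

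Of the array identifiers, 1080 were named through RefSeq genes and 553 through the study's gene tables. A gene was read from its brightest probe. The rule for naming took the called genes with the largest change, filled up by the 6 smallest p in each direction, at most 2 identifiers without a symbol in each direction, and 2 to 4 members of each list by p. Identifiers and genes beyond it (ENSCAFT00000030181, XM_548192, ENSCAFT00000019852, TLR2, TLR4, SOCS3, BCL3, PTX3, TNFAIP6, IL33, CXCL8, CXCR6, ADAMTS4, HDC) were chosen after their values were seen or as partners. A gene that the rule would name is not reported here. The members and lists were chosen with earlier results of these data known. Tables and figures used Python 3.11.15, numpy 2.4.6, pandas 2.3.3 and matplotlib 3.10.9. No probe sequences or genome of the array's build were used here.

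The alternatives were other samples in the fit, no block, the slide as a further block, other scalings, normexp (offset 50) on spot medians, other filters and call rules, the mean over probes, and each dog left out. Leaving out dogs 2802 and 2847 together was added after the data were seen.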

Additional observations from a re-analysis of the deposited data

Results flagged for a closer look

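Among 68 named results, 18 had 1 dog far from the other 5, by the gap to the nearest dog as a share of the whole range. Chance gives such a gap in about 1 in 20 groups, and the results share the same dogs. Dog 2704 was the far dog in 15, as the highest in 14. Its allergen minus saline difference was 2.50 for CD14, 1.29 for NR4A1, 1.23 for MYC, 4.39 for PTX3, 4.72 for TNFAIP6, 3.21 for CCL20, 2.81 for CCL8 and 2.74 for CCL2. It was 1.35 for CXCL16, 1.93 for ICAM1, 4.00 for CHI3L1, 4.49 for ADAMTS4, 3.00 for C5AR1 and 1.22 for HSPA5, and the lowest for PPARA, at -1.12. Dog 2802 was the lowest for TNF, at -0.10, and the highest for PRF1, at 0.74. Dog 2800 was the lowest for CXCL10, at -2.26.

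The difference between sites was of another size at 24 hr than at 6 hr for 34 named results by limma, lower for 30 and higher for 4. The 24 hr minus 6 hr change was 1.33 for PLN, 0.72 for CCDC78, 0.71 for GATA3 and 0.77 for PPARA. Among cytokine and chemokine genes it was -1.73 for IL18BP, -1.13 for TNFRSF1A, -1.23 for OSMR, -5.40 for PTX3, -3.51 for TNFAIP6, -1.97 for IL33, -3.11 for CCL8, -3.07 for CCL2, -0.97 for CXCL16 and -1.39 for IL13. It was -1.22 for CD14, -1.81 for BIRC3, -1.39 for CEBPD, -1.84 for SOCS3, -0.94 for BCL3, -0.88 for MYC, -1.84 for SELE and -1.69 for ICAM1. It was -2.26 for CHI3L1, -1.90 for ADAMTS5, -3.91 for ADAMTS4, -0.92 for HSPA5, -1.44 for HDC, -0.68 for HTR2B, -0.83 for XBP1 and -1.04 for SNORA1. The identifiers without a symbol changed by -1.68 (TC64020), -1.40 (ENSCAFT00000042272), -1.26 (ENSCAFT00000030181) and -0.95 (XM_548192), and the first 3 of these rest on saline sites below detection at 6 hr.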

How the results depend on the processing

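Of the 23 transcripts called at 6 hr (22 higher), the number was 47 (35 higher) at an unadjusted p below 0.002, 15 (14) with normexp, 14 (12) with the slide as a further block, 12 (12) without dogs 2802 and 2847, 3 (3) with the 24 arrays of 6 hr and 0 (0) with the 12 arrays. Without the dog as a block it was 13 (13). Leaving out each dog in turn gave 13 to 26 (12 to 23 higher). All 22 kept their direction in these fits. The difference from sensitized dogs was called for 13 identifiers at an unadjusted p below 0.002. The 24 hr against 6 hr count of 1108 became 2559 with no fold limit, 385 without the block, 465 with unscaled values, 10 without dogs 2802 and 2847, and 376 to 1123 with each dog left out. The median over identifiers called in sensitized dogs ran from 0.15 to 0.48 for higher and from -0.47 to -0.27 for lower ones with each dog left out. Signs turned with a dog left out for TLR2 (-0.02 to 0.29), TLR4 (-0.01 to 0.29), PTX3 (-0.003 to 0.96), IL33 (-0.02 to 0.31), CXCL10 (-0.03 to 0.68) and C5AR1 (-0.08 to 0.65), where the lowest value was without dog 2704, for OAS2 (-0.36 to 0.34, turned without dog 2800 or, at 0.01, 2802) and for HDC (-0.03 to 0.27, turned without dog 2704 or 2847). The causes were not tested. With 6 dogs, small differences could be missed, although 9 identifiers with under 1.5-fold had an adjusted p of limma below 0.05. Of the 22, 6 were not well above background at any saline site, so their differences are bounds.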
